A study of Mus musculus with 2 samples.

Results

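Leukocytes infiltrating Lewis lung carcinoma (LLC) tumors were examined for 44 genes of the cell cycle, taken by symbol from the 27998 gene rows of the count matrices. The 44 genes comprised 26 that are highest in G2 and mitosis (G2/M genes) and 18 that are highest in S phase (S genes), and each matched a single row. LLC cells are an established line from a mouse lung tumor, implanted here under the skin of C57/BL6 mice at 8 weeks of age, with tumors taken after 14 days. The control genotype was miR-21fl/fl, in which loxP sites flank the gene of the microRNA. The other genotype, LysMCre;miR-21fl/fl, has Cre recombinase driven by the lysozyme M promoter, which is active in macrophages, monocytes and granulocytes. The floxed allele was thus shared by both groups, the labels give 10 weeks as the age, and cells of 3 mice were pooled per genotype into 1 droplet library, without further replicates.

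The title of each library gives wt or cko, but the description of the cell source assigns the genotypes the other way round, so the names used here are library labelled wt and library labelled cko. The sort is given as CD45+ in the title and design, and as CD45+, CD11b+, MHCII+, F4/80+ in the growth protocol. T and NK cells were present in both libraries, which the second gate would not keep. Lyz2, the lysozyme M gene that carries the Cre insertion in LysMCre mice, measured 15913 counts per 1000000 (CPM) in macrophages with C1q genes in the library labelled wt and 7095 CPM in the library labelled cko.

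The unit is the unique molecular identifier (UMI), 1 per captured RNA molecule. The libraries held 24492486 UMIs in 2449 cells and 27163485 UMIs in 2718 cells, and 2445 and 2704 cells were kept after asking for at least 200 genes and at most 10% mitochondrial UMIs. Median depth was 8373 UMIs per kept cell in the library labelled wt and 8273.5 in the library labelled cko. The libraries shared 5 cell barcodes, none of them on a cycling cell. With 1 library per genotype no difference between genotypes can be tested, so all intervals below are 95% intervals for counting error alone. UMIs of a single cell are not independent, which makes intervals on sums of UMIs narrower than those on numbers of cells.

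Cells duplicate their DNA in S phase with helicases, clamps and nucleotide-making enzymes, and separate it in mitosis with cyclin B, its kinase, and the motors and checkpoint proteins of the spindle. The RNAs of these proteins are periodic, since E2F factors switch on S genes at the end of G1, while the MuvB complex with B-Myb and FoxM1 switches on G2/M genes later. Many tissue macrophages and activated T cells can divide where they reside, whereas monocytes and neutrophils are largely made by dividing precursors in the bone marrow.

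The promoters of these genes carry the letters through which this timing is known to be set, and 6 are shown because they hold the motifs of the contrast between the lists. RefSeq promoter windows (GRCm38.p6, 250 bases before to 50 after the gene start) were at hand for 36 members, 21 of them G2/M genes and 15 of them S genes. The cell cycle homology region (CHR, TTTGAA, either strand) occurred in 15 of 21 G2/M genes and in 1 of 15 S genes, Mcm2, against 17.9% of all 32851 windows. The CCAAT box (CCAAT, either strand) occurred in 18 of 21 G2/M genes and 10 of 15 S genes, against 37.4% of windows. An E2F motif (TTTGGCGC or TTTCGCGC, either strand) occurred in 6 of 15 S genes, which were Mcm3, Mcm5, Mcm6, Mcm7, Uhrf1 and Zfp367, and in 1 of 21 G2/M genes, Cdk1, against 0.813% of windows. The E2F forms can overlap each other, and a gene with 2 windows, as 4 members had, was counted once if either held the motif. A match of letters is a description and not a measured site. Below, 200 bases are printed for each gene, 170 before and 30 after the start, with CHR and CCAAT in capitals for Cdc20 (chr4:118437314-118437513, minus strand), Ccnb2 (chr9:70421525-70421724, minus strand), Ube2c (chr2:164769759-164769958, plus strand) and Kif11 (chr19:37376212-37376411, plus strand). E2F motifs are in capitals for Mcm5 (chr8:75109339-75109538, plus strand) and Mcm6 (chr1:128359676-128359875, minus strand). Capitals of the reverse complement read TTCAAA for CHR and ATTGG for CCAAT.
Cdc20: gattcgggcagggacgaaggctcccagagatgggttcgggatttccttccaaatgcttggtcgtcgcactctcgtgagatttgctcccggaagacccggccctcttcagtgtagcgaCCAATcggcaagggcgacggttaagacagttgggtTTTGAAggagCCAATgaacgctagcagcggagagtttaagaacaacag
Ccnb2: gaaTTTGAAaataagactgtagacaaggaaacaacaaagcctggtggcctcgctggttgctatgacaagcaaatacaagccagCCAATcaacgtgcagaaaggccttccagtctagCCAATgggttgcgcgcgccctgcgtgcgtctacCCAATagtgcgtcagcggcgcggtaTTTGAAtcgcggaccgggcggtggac
Ube2c: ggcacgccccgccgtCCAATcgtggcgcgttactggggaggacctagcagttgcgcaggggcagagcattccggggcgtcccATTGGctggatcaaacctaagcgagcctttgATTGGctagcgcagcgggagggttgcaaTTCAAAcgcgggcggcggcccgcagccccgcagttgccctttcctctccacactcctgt
Kif11: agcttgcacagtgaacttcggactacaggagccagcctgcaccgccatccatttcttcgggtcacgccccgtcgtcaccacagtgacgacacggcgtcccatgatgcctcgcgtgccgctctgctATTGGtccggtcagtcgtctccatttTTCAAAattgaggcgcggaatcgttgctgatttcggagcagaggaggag
Mcm5: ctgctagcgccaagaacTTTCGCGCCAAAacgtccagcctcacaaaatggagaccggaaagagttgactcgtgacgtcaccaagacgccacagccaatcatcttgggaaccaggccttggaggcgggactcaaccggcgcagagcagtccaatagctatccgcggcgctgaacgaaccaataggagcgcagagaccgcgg
Mcm6: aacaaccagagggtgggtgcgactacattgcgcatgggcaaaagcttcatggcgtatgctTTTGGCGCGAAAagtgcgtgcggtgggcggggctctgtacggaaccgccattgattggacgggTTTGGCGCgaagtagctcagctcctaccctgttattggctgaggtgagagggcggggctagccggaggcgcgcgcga
The CHR of Cdc20 began 18 bases before the start, between CCAAT boxes at 53 and 8 bases. In Ube2c the CHR lay 29 bases before the start and in Kif11 19 bases. Mcm6 held an overlapping pair of E2F motifs 110 and 106 bases before the start and another at 47 bases, and Mcm5 a pair at 153 and 149 bases.

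A cell was called cycling when it held 3 or more UMIs over Mki67, which encodes the Ki-67 protein of dividing cells, Top2a, the topoisomerase that untangles DNA before division, and Ccnb1, the mitotic cyclin B1. Of the kept cells, 4397 had none of these UMIs, 391 had 1, 69 had 2, 38 had exactly 3 just inside the threshold, and 144 had 12 or more. In the library labelled wt 106 of 2445 cells were cycling, 4.34% (exact interval 3.56 to 5.22), and in the library labelled cko 186 of 2704, 6.88% (5.95 to 7.90). The ratio of the shares was 1.59 on the linear scale, 0.67 on the log2 scale (0.31 to 1.02). Cycling cells were the deeper ones, with medians of 18789 and 17929 UMIs against 8239 and 8053.5 in the other cells. With every cell thinned to 3000 UMIs, 6.05% and 9.36% of cells held at least 1 UMI of these genes.

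Some of the cycling cells fell in a tumor gate and were not counted as leukocytes. Cells gated on keratins and Epcam, which mark LLC carcinoma and other epithelial cells, numbered 6 and 17, of which 3 and 15 were cycling. Their level of Ptprc, the CD45 gene, was 0.220 UMIs per 10000, against 4.16 in all other cells, so the name leukocyte does not hold for them and they were left out wherever leukocytes are named. Among the remaining cells, 103 of 2439 (4.22%) and 171 of 2687 (6.36%) were cycling, a ratio of 1.51 with an interval of 1.17 to 1.94.

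Classes were gated on lineage marker UMIs that include no cell cycle gene. In the large classes, genes kept out of the gates were detected more often inside them than in other cells. Thy1 was detected in 96.0% of CD8 T cells against 7.08% of other cells, and Gzma in 65.1% of NK cells against 4.30%. The myeloid classes were less sharply set apart, with Mrc1 in 62.6% of C1q macrophages against 15.7%, Apoe in 88.3% against 64.5%, Trem2 in 42.3% against 30.7%, and Ccr2 in 96.5% of classical monocytes against 73.9%. The small group gated on Mpo, Elane, Ms4a3 and Ctsg held Prtn3 in every cell but Cd34 in 4.17% and Kit in none, and is therefore called progenitor-gated only by its gate. Gates cut a continuum in the monocyte and macrophage lineage, where 279 of 4100 cells lay within 2-fold of the C1q threshold and 860 within 2-fold of the Ly6c2 threshold.

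C1q macrophages, with 12 or more UMIs per 10000 of the complement genes C1qa, C1qb and C1qc and under 3 of Ly6c2, supplied the most cycling cells. They contained 44 cycling cells of 599 (7.35%, 5.39 to 9.74) in the library labelled wt and 96 of 832 (11.5%, 9.45 to 13.9) in the library labelled cko. The intervals overlap slightly, and the ratio of the shares was 1.57 (1.09 to 2.30). They made up 42.7% and 56.1% of cycling leukocytes while being 24.6% and 31.0% of leukocytes. Thinned to 3000 UMIs, 8.68% and 13.0% of them held a UMI of the 3 genes, so the order of the libraries was the same at equal depth.

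Cells of the same lineage below the C1q threshold or past the Ly6c2 threshold rarely cycled. Classical monocytes, past the Ly6c2 threshold and below that of C1q, contained 8 cycling cells of 575 (1.39%) and 9 of 529 (1.70%). Cells past both thresholds contained 1 of 199 and 1 of 153, shares of 0.503% and 0.654%, at median depths of 9784 and 9098 UMIs against 8007 and 7976 in classical monocytes. At least 1 UMI of the 3 genes was held by 6.53% and 11.1% of them against 6.96% and 9.45% of classical monocytes, and by 2.51% and 5.23% against 3.30% and 3.78% after thinning, so with 1 UMI in place of 3 the order of these classes turned in the library labelled cko. Other myeloid cells, which passed neither gate, contained 6 of 493 and 1 of 464. Nonclassical monocytes, gated on Ace, Treml4, Spn and Eno3, contained none of 124 and none of 132, where a limit of 3 counts allows shares of up to 2.42% and 2.27% and the exact interval up to 2.93% and 2.76%. Granulocytic cells, gated on S100a8 and S100a9, contained none of 44 and none of 91, where 3 counts allow 6.82% and 3.30% and the exact interval 8.04% and 3.97%.

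Free RNA can give UMIs in cells that do not cycle, and no empty droplets were at hand to measure it. Of nonclassical monocytes, where no cell was cycling, 2.42% and 2.27% held a UMI of Mki67, Top2a or Ccnb1, at median depths of 6064.5 and 6042.5 UMIs, and none held 3. Plasmacytoid dendritic cells, at 5773.5 and 5773 UMIs, held one in none of 18 and 4 of 19 cells. The share with a UMI was 19.9% and 24.8% in C1q macrophages at 11909 and 11456.5 UMIs. It was 6.96% and 9.45% in classical monocytes. After thinning it was 1.61% and 0.758% in nonclassical monocytes.

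T cells cycled at the highest share among the classes of over 50 cells in each library. CD8 T cells contained 16 cycling cells of 70 (22.9%, 13.7 to 34.4) and 25 of 106 (23.6%, 15.9 to 32.8). CD8-negative T cells contained 12 of 74 (16.2%, 8.67 to 26.6) and 13 of 76 (17.1%, 9.43 to 27.5). In neither T cell class did the shares of the libraries differ beyond counting error, the interval of the ratio being 0.530 to 2.07 for CD8 T cells and 0.444 to 2.53 for CD8-negative T cells. CD8 T cells were shallower in the library labelled wt, at a median of 6711 UMIs against 8024, and the thinned shares were 18.6% and 27.4%. CD8-negative T cells had medians of 4949.5 and 4956 UMIs and thinned shares of 27.0% and 31.6%.

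NK cells contained 3 cycling cells of 56 and 6 of 50, 5.36% and 12%. Dendritic cells gated on Xcr1 and Clec9a, the cross-presenting type, contained 4 of 23 and 5 of 24, 17.4% and 20.8%, at median depths of 17995 and 16509.5 UMIs. Other Flt3+ dendritic cells contained 1 of 18 and 3 of 37. Mature dendritic cells gated on Ccr7 contained none of 13 and 1 of 26, and plasmacytoid dendritic cells none of 18 and none of 19. The progenitor-gated cells contained 3 of 11 and 5 of 13. The interval of each of these small classes spans over 10 percentage points, and their order among themselves cannot be read.

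**Figure D1:**
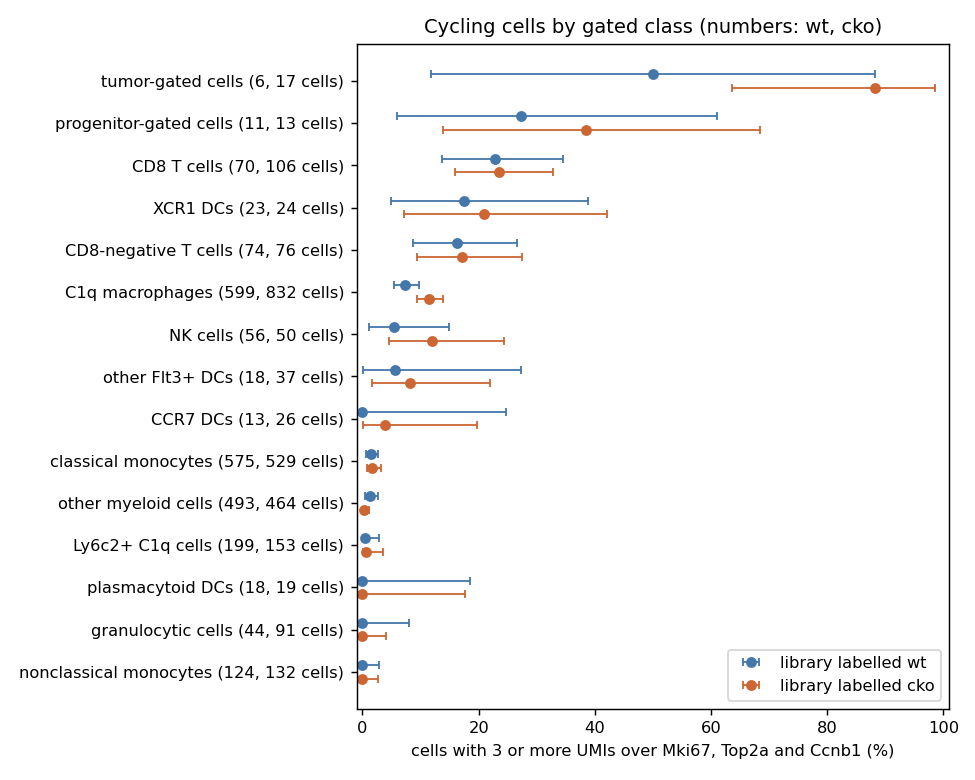
Share of cycling cells, in percent on the x axis, for each gated class with at least 20 cells over both libraries. Points are the shares of each library and bars the exact 95% binomial intervals. CD8 T cells sit near 23% in both libraries, C1q macrophages at 7.35% and 11.5%, and nonclassical monocytes, granulocytic cells and plasmacytoid dendritic cells at 0.

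The share of a member's UMIs that lay in cycling cells differed between the lists. Over all kept cells, the 18 cycling tumor-gated ones included, between 24.7% and 93.5% of a member's UMIs lay in cycling cells, with a median of 78.2% for the 44 genes. For the 23 G2/M genes that did not choose the cells the median was 86.0%, and for the 18 S genes 46.0%. Over leukocytes alone the range was 22.1% to 93.0%, with medians of 83.5% and 44.2% for these lists, and the values of single genes below are over all kept cells. As the cells were chosen by 3 members, these shares are a description.

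Nusap1, a protein of the spindle microtubules, was the most restricted, with 93.5% of its 1064 UMIs in cycling cells. Mxd3, a partner of MAX in the Myc network, followed at 92.5%, Plk1, the polo-like kinase of mitotic entry, at 91.9%, and Hmmr, a microtubule-binding receptor for hyaluronan, at 91.6%. Ccna2, the cyclin of S phase and G2, reached 90.7%, and Kif11, the motor that separates the spindle poles, 90.2%. Fam64a stood at 91.1%, Prc1, which bundles the midzone of the spindle, at 89.5%, and Cenpe, the motor of the kinetochore, at 87.4%. Kif20a, a motor of cytokinesis, stood at 86.8%, Cenpf, a kinetochore protein, at 86.2%, Cdc20, the activator of the anaphase-promoting complex, at 86.0%, and Ube2c, its ubiquitin-conjugating enzyme, at 85.5%. The 3 genes of the rule stood at 86.6% for Mki67, 89.4% for Top2a and 91.2% for Ccnb1. Outside the cycling cells, 17 cells held a Mxd3 UMI, 64 a Nusap1 UMI, 161 a Mki67 UMI, 220 a Top2a UMI and 296 a Ube2c UMI.

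The other G2/M genes had between 50.7% and 85.0% of their UMIs in cycling cells. Birc5, the survivin of the chromosomal passenger complex, had 85.0% of 3462 UMIs in cycling cells, Cdk1, the mitotic kinase, 83.5%, Bub1, a kinase of the spindle checkpoint, 83.8%, and Tpx2, a spindle assembly factor, 82.3%. The Aurora kinases Aurkb and Aurka stood at 78.5% and 77.9%. Ccnb2, the second cyclin B, stood at 70.6%, Kif23, a motor of the midbody, at 66.0%, and Bub1b, the checkpoint protein BubR1, at 59.5%.

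Cenpa, the histone H3 variant of centromeres, was the G2/M gene least tied to cycling cells, at 50.7% of 3585 UMIs, with 1087 cells outside the cycling ones holding a UMI. In cells that were not cycling its level was 171 and 168 CPM in CD8 T cells of the libraries labelled wt and cko. In C1q macrophages it was 33.9 and 31.5 CPM, and in nonclassical monocytes, where no cell was cycling, 31.7 and 19.6 CPM. Non-cycling CD8 T cells thus held more Cenpa than the macrophages in both libraries, and 50% and 58.0% of them had a UMI against 25.4% and 23.8% of the macrophages, which were the deeper cells.

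Among S genes the most restricted was Rrm2, the regulated subunit of ribonucleotide reductase, which had 84.8% of its UMIs in cycling cells. Tk1, thymidine kinase, had 75.3% and Tyms, thymidylate synthase, 68.1%, whereas Rrm1, the large subunit of the reductase, had 55.6%. The E cyclins of the G1 to S transition stood at 76.6% for Ccne2 and 70.4% for Ccne1, and Uhrf1, which recognises hemimethylated DNA and recruits the methyltransferase Dnmt1, at 65.4%.

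The subunits of the replicative helicase were spread over more cells, with 52.1% of UMIs in cycling cells for Mcm7, 47.5% for Mcm5, 40.8% for Mcm6, 38.1% for Mcm3, 37.8% for Mcm2 and 34.4% for Mcm4. Gins2, which joins that helicase at the fork, stood at 44.6%, Zfp367, a zinc finger protein, at 39.1%, and Ung, the uracil glycosylase, at 37.6%. Pcna, the sliding clamp of the polymerase, stood at 31.6% of 3934 UMIs, with UMIs in 1711 cells outside the cycling ones, and E2f1, the founding E2F factor, at 24.7%. Pcna was also present where no cell was cycling, at 51.9 and 47.7 CPM in nonclassical monocytes, close to the 66.3 and 71.1 CPM of C1q macrophages that were not cycling. E2f1 differed more between these classes, at 8.87 and 9.79 CPM in nonclassical monocytes and 28.9 and 28.2 CPM in C1q macrophages that were not cycling.

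**Figure D2:**
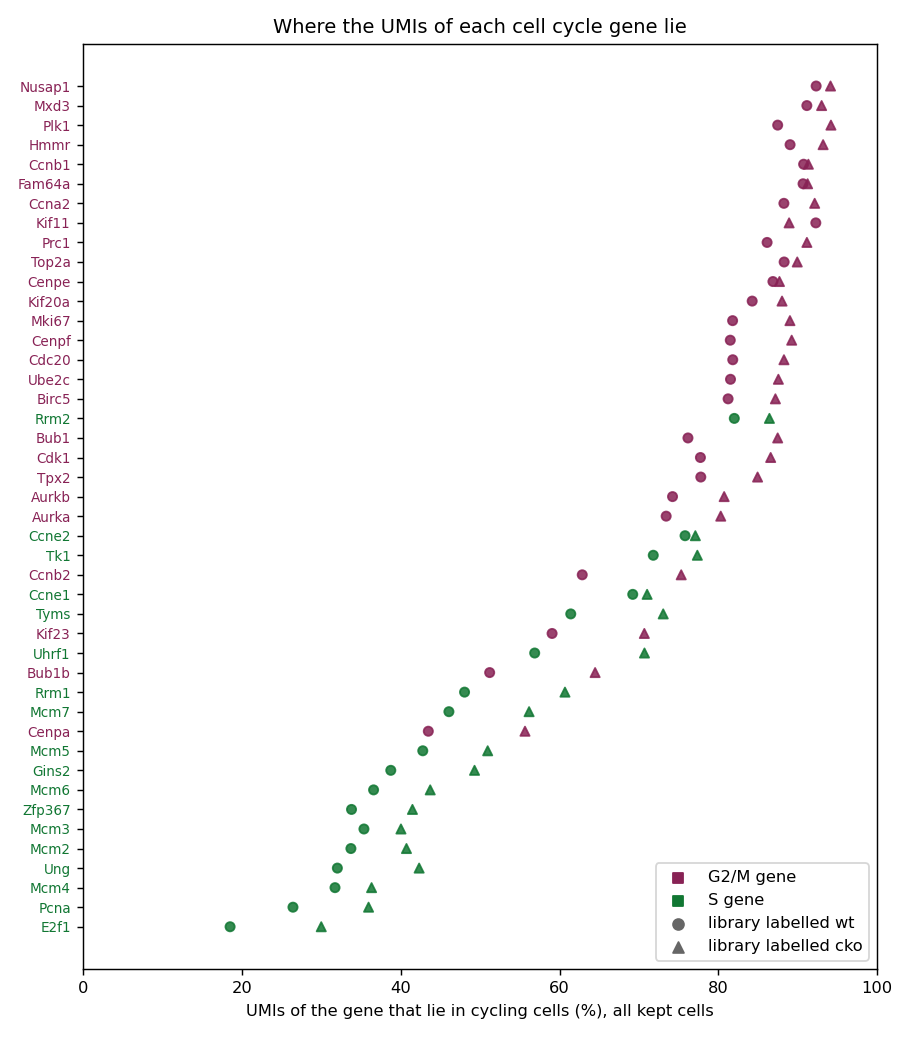
Percent of each gene's UMIs that lay in cycling cells among all kept cells, 1 row per gene, with circles for the library labelled wt and triangles for the library labelled cko. G2/M genes fill most of the upper part, from Nusap1 at 93.5% over both libraries, and S genes most of the lower part, down to E2f1 at 24.7%. Between them the lists mix, with the S gene Rrm2 at 84.8% and the G2/M gene Cenpa at 50.7%.

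Within C1q macrophages the 140 cycling cells were set against the 1291 others. Their median depth was 22554.5 UMIs against 11106, and levels are given as CPM to allow for it. All 43 members with at least 100 UMIs, which leaves out Mxd3, were at least 2-fold higher in cycling cells, against 5.11% of 8337 other genes, and the comparison is a description because members chose the cells. Birc5 had the highest level, 595 and 501 CPM in cycling cells of the libraries labelled wt and cko against 16.2 and 13.7 CPM in the others. Ube2c stood at 325 and 329 CPM against 10.3 and 8.73. Cdk1 stood at 267 and 281 CPM against 13.0 and 9.75. Between cycling cells of the libraries the intervals for Ube2c and Cdk1 include 0, and that for Birc5 does not.

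Levels in cycling C1q macrophages differed little between libraries for the lists as a whole. The sum of the 26 G2/M genes differed by 0.0032 on the log2 scale (−0.05 to 0.06), and that of the 18 S genes by 0.08 (0.00 to 0.15). The intervals of 5 members (11.4%) lay above 0, against 5.97% of 8140 genes tested, and those of 2 (4.55%) below 0, against 4.08%. Zfp367 was higher in cycling cells of the library labelled cko at 20.5 against 8.84 CPM, Mxd3 at 32.2 against 16.7 CPM and Fam64a at 48.3 against 30.5 CPM. Mcm7 was higher at 174 against 130 CPM and Mki67 at 219 against 184 CPM. Cenpe was lower at 102 against 137 CPM, and Birc5 was lower by 0.25 on the log2 scale (0.10 to 0.39). Mki67 is a gene of the rule that chose these cells, so its level within them is a description. It is counted among the 5 members above 0. The sum of the 26 G2/M genes includes every gene of the rule and is likewise a description.

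Genes outside the 44 that stood out most in cycling C1q macrophages were chosen by the lower bound of the ratio. The first was Hist1h2ap, a replication-dependent histone H2A, at 218 against 3.20 CPM, then Neil3, a DNA glycosylase, at 50.5 against 0.493 CPM, and Kif22, a chromosome motor, at 94.6 against 1.48 CPM. 2810417H13Rik, which encodes the PCNA-associated factor, had the most UMIs of the 20, at 538 against 13.0 CPM. The remainder included Casc5, Ndc80, Ncapg, Nek2, Esco2, Melk, Cep55, Racgap1 and Kifc1, all known from chromosome segregation or cytokinesis except the kinase Melk, whose role is less settled.

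Genes of the macrophage class differed in how they compared. C1qa, used in the gate, measured 4436 CPM in cycling and 4336 CPM in other cells, and C1qb 5912 and 5796 CPM. Csf1r, the receptor for macrophage growth factor, measured 412 against 561 CPM and Trem2, a lipid-sensing receptor, 43.4 against 84.7 CPM. Genes of antigen presentation were lower, with H2-Ab1 at 6517 against 9895 CPM and Cd74 at 14943 against 22185 CPM, and so was Lyz2, at 9774 against 16756 CPM in the library labelled wt and 4428 against 7715 CPM in the library labelled cko. Ccr2, the receptor for monocyte-attracting chemokines, was at 0.291 times its level in other cells, 107 against 369 CPM. The reference genes Actb and Rplp0 were both at 1.02 times. Ccr2, Lyz2 and the antigen presentation genes were chosen after their values were seen.

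Cycling macrophages were scarce at the highest MHC class II. In the library labelled wt the share was 9.66%, 9.93% and 9.66% in the 3 lower quartiles of MHC class II UMIs per 10000 and 0.633% in the highest. In the library labelled cko it was 19.7% in the lowest quartile, then 14.1% and 9.39%, and 2.50% in the highest. In percentage points the libraries differed most in the lowest quartile, with 14 of 145 and 42 of 213 cells, and little in the third, with 14 of 145 and 20 of 213, while the highest held 1 of 158 and 5 of 200. This split, like the next, was chosen after values were seen. The share also differed with depth. It was 0% (0 of 57) and 6.12% (6 of 98) below 6000 UMIs, 1.86% and 2.48% from 6000 to 10000, 3.73% and 6.09% up to 15000, 5.88% and 11.6% up to 20000, and 24.6% and 41.4% above. In each of 5 depth bins the share was higher in the library labelled cko, and the part of depth in the pattern by MHC class II was not tested.

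C1q macrophages were further divided by groups of genes named after values were seen, Vcam1, Ccl8 or Folr2, and Cd300e, Clec4b1 or Pparg, each at 5 or more UMIs per 10000. Cells with neither group made up 356 of 599 and 438 of 832 and had similar shares of cycling cells in the libraries, 4.78% (2.81 to 7.54) and 5.25% (3.36 to 7.78). Cells with the Vcam1 group alone had 8.77% and 17.6%, those with the Cd300e group alone 13.4% and 17.3%, and those with both 12.8% and 24.2%. Intervals of the libraries overlap in each group. Median depth was 10344.5 and 9708.5 UMIs with neither group, 18978 and 17265 with the Vcam1 group, 13895.5 and 11942 with the Cd300e group, and 18914 and 15895.5 with both, and the part of depth in these shares was not tested. The Cd300e group alone made up 82 cells in the library labelled wt and 197 in the library labelled cko.

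**Figure D3:**
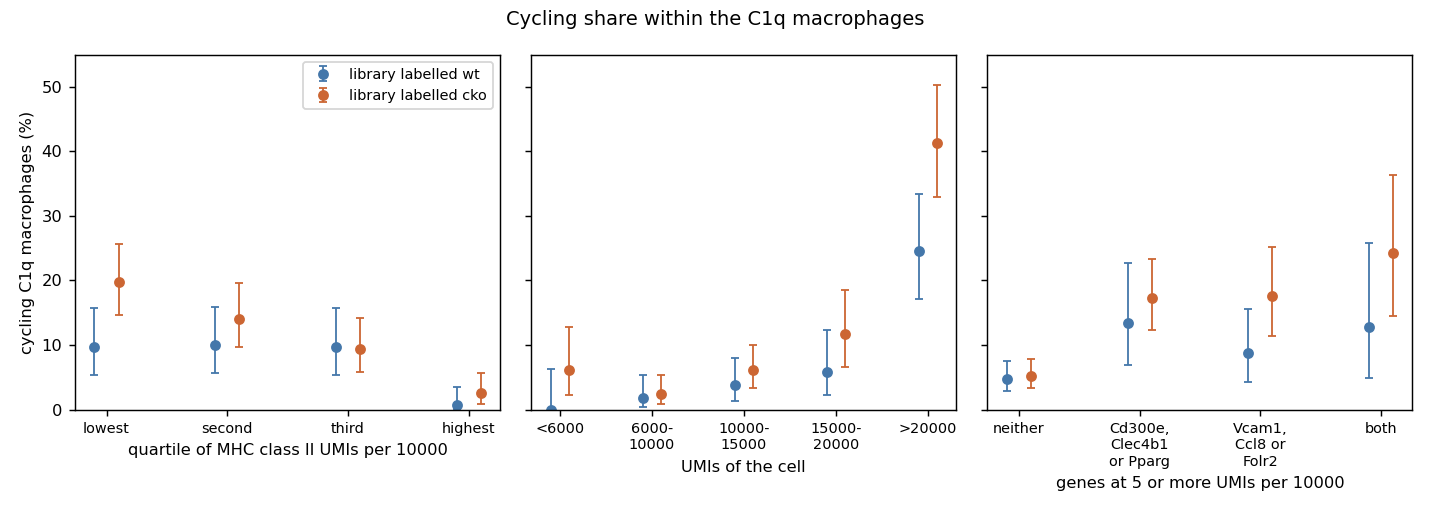
Share of cycling C1q macrophages, in percent, by quartile of MHC class II UMIs, by UMIs of the cell, and by marker genes of the cell, with exact 95% binomial intervals. The share is 0.633% and 2.50% in the highest MHC class II quartile and 24.6% and 41.4% above 20000 UMIs.

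Between libraries the members were compared first over all leukocytes. The 26 G2/M genes summed to 437 CPM in the library labelled wt and 659 CPM in the library labelled cko, a log2 ratio of 0.59 (0.56 to 0.63). The 18 S genes summed to 430 and 525 CPM, a log2 ratio of 0.29 (0.25 to 0.33). All 44 genes had a ratio above 0, and 22 passed a log2 ratio of 0.5, of which 20 were G2/M genes and 2, Tk1 and Zfp367, S genes. Of 12172 genes with at least 20 UMIs, 6.33% passed the same ratio upward and 3.26% downward, where no member did. The median log2 ratio was 0.63 for G2/M genes, 0.34 for S genes and 0.03 for all genes.

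The largest ratio over leukocytes was that of Fam64a, at 3.17 and 7.37 CPM, 1.22 on the log2 scale (0.83 to 1.62). Ccnb1 followed at 14.1 and 27.3 CPM (0.95), Zfp367 at 3.04 and 5.88 CPM (0.95), Kif20a at 7.81 and 14.0 CPM (0.84) and Bub1 at 4.07 and 7.25 CPM (0.83). The smallest were those of E2f1 at 22.6 and 23.4 CPM (0.05), Ung at 7.07 and 7.40 CPM (0.07) and Pcna at 72.8 and 78.6 CPM (0.11). Within cycling leukocytes alone the sum of G2/M genes kept a log2 ratio of 0.19 (0.15 to 0.23) and that of S genes had −0.05 (−0.11 to 0.00). The G2/M sum includes the genes that chose the cycling cells, so its ratio within them is a description. In summed counts more cycling cells and more RNA per cycling cell cannot be told apart, so values over cycling cells are given. The mix of classes also differed, with C1q macrophages at 24.6% and 31.0% of leukocytes and CD8 T cells at 2.87% and 3.94%. Its part in the ratios over leukocytes and over cycling leukocytes was not tested.

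In C1q macrophages the G2/M genes summed to 621 and 882 CPM, a log2 ratio of 0.51 (0.46 to 0.56), and the S genes to 537 and 715 CPM, 0.41 (0.36 to 0.47). Past a log2 ratio of 0.5 were 20 members, 14 G2/M genes and 6 S genes, against 7.39% of 10702 genes tested, and none was past −0.5, against 3.89%. Zfp367 led at 2.14 and 7.82 CPM (1.87, 1.13 to 2.69), on 18 and 85 UMIs. Mxd3 stood at 2.37 and 6.72 CPM, Fam64a at 4.51 and 9.93 CPM (1.14), Mki67 at 25.4 and 44.3 CPM (0.80) and Ccne1 at 5.94 and 10.1 CPM (0.77). Among the helicase subunits, Mcm7 at 36.3 and 56.1 CPM (0.63), Mcm6 at 45.9 and 68.0 CPM (0.57) and Mcm3 at 50.6 and 72.5 CPM (0.52) were past the threshold. Gins2 at 24.6 and 26.2 CPM, E2f1 at 32.2 and 34.9 CPM and Cenpe at 19.2 and 21.2 CPM had the smallest ratios, and their intervals and those of 5 other members include 0.

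In CD8 T cells, a class not known for lysozyme M, the lists had opposite signs. The G2/M genes summed to 1628 and 2480 CPM, a log2 ratio of 0.61 (0.51 to 0.71), and the S genes to 1794 and 1574 CPM, −0.19 (−0.30 to −0.08). Of 42 members tested, 16 were past 0.5, all of them G2/M genes, against 14.4% of 6498 genes, and 3 were past −0.5, all of them S genes, against 10.7%. Fam64a led at 13.0 and 42.9 CPM (1.73), followed by Bub1 at 11.5 and 26.9 CPM (1.22), Bub1b at 13.0 and 28.9 CPM (1.16), Ube2c at 127 and 275 CPM (1.12) and Ccnb1 at 46.1 and 96.8 CPM (1.07). The 3 lower genes were Pcna at 225 and 144 CPM (−0.65, −0.98 to −0.31), Ung at 47.6 and 32.9 CPM and Ccne1 at 37.5 and 26.0 CPM, the last 2 with intervals that include 0. These sums rest on 16 and 25 cycling cells. Without the single cell with the most G2/M UMIs in each library the G2/M ratio was 0.90 (0.78 to 1.02), and in the library labelled wt a single cell held 42 of 88 Ube2c UMIs and a single cell 19 of 32 Ccnb1 UMIs.

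**Figure D4:**
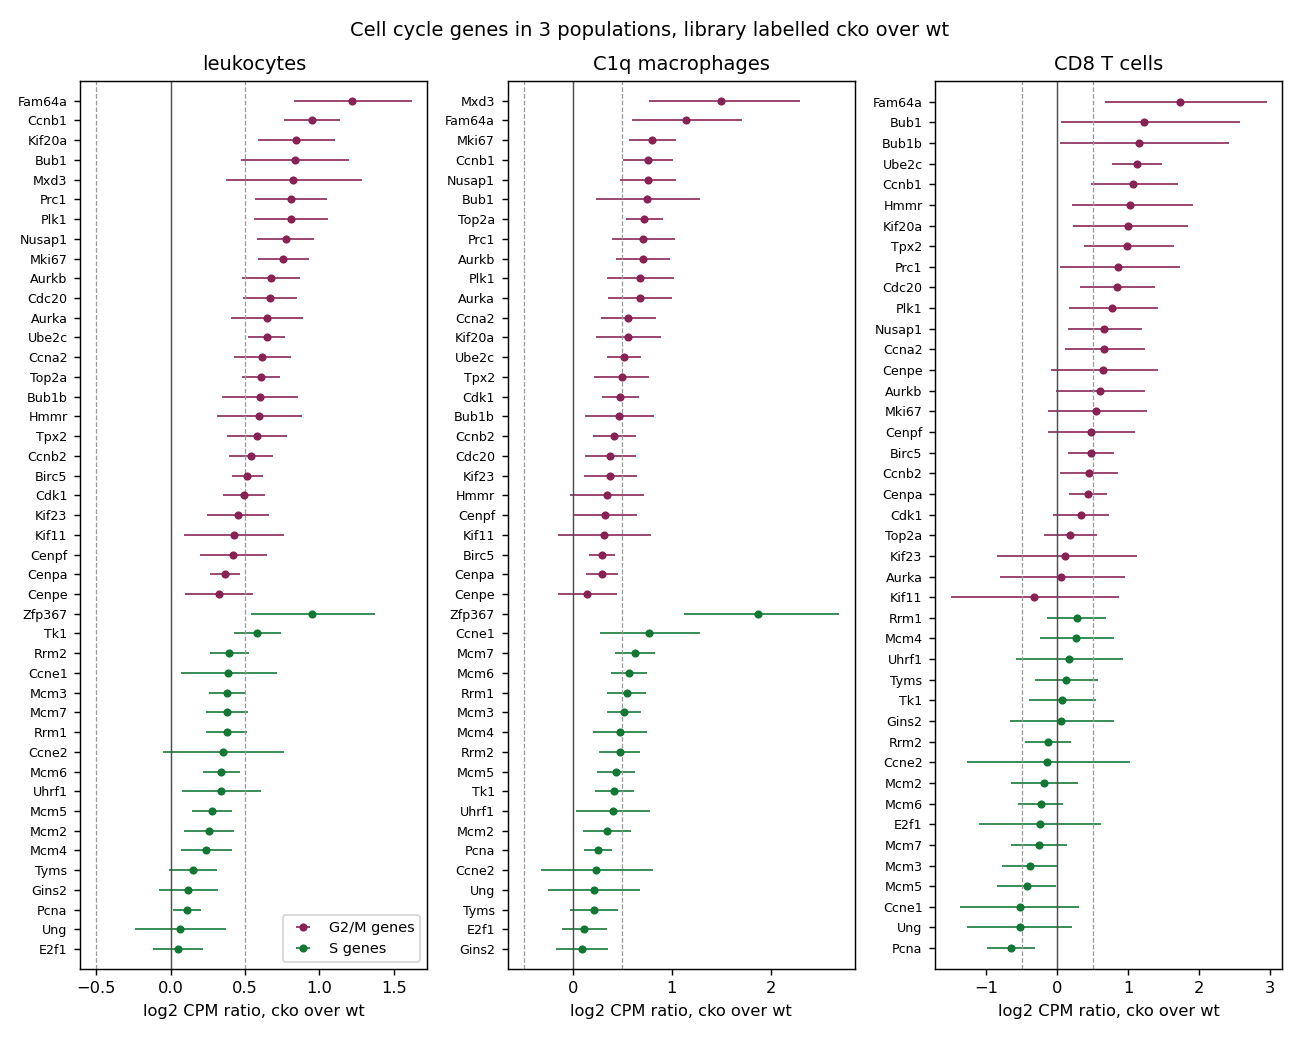
Log2 ratio of CPM, library labelled cko over library labelled wt, for each member with at least 20 UMIs, with 95% counting intervals and dashed lines at 0.5 and −0.5. In leukocytes and C1q macrophages both lists lie to the right of 0, and in CD8 T cells G2/M genes lie to the right (16 past 0.5) while 11 of 17 S genes lie to the left.

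Classical monocytes had low levels of both lists. The G2/M genes summed to 192 and 298 CPM, a log2 ratio of 0.64 (0.51 to 0.76), and the S genes to 151 and 163 CPM, 0.12 (−0.03 to 0.27). Kif11 had the largest ratio at 1.25 and 4.11 CPM (1.71) on 6 and 18 UMIs. Cdc20 stood at 5.23 and 16.2 CPM (1.63) and Ccnb1 at 4.81 and 14.2 CPM (1.56), and single cells of the library labelled cko held up to 20 of 71 Cdc20 UMIs and up to 17 of 62 Ccnb1 UMIs. Top2a was at 14.8 and 10.7 CPM. Other myeloid cells went the other way, with G2/M genes at 190 and 146 CPM and S genes at 229 and 152 CPM on 6 and 1 cycling cells. NK cells had 716 and 1165 CPM of G2/M genes and 762 and 1109 CPM of S genes.

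S and G2/M genes were then set against each other within each cycling cell, since their balance tells where in the cycle a cell was. The rule asks for UMIs of 3 of the 26 G2/M genes, so each cycling cell held G2/M UMIs by its choice, and the balance is a description that leans to G2/M. In C1q macrophages S genes supplied 33.2% of member UMIs in the library labelled wt and 34.3% in the library labelled cko, and 37.3% and 39.0% without the 3 genes of the rule, and 12 of 44 and 32 of 96 cells held more S than G2/M UMIs. In CD8 T cells the shares were 45.6% and 27.8%, or 49.8% and 30.7% without those genes. More S than G2/M UMIs were held by 10 of 16 (62.5%, 35.4 to 84.8) and 5 of 25 cells (20%, 6.83 to 40.7). Thinned to 3000 UMIs, 10 of 16 and 3 of 25 CD8 T cells did. In CD8-negative T cells S genes supplied 30.8% and 32.2%, or 35.6% and 37.8% without them.

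Cycling classical monocytes held few S UMIs. S genes supplied 22.9% and 8.39% of member UMIs, or 28.1% and 9.85% without the genes of the rule, and none of 17 cells held more S than G2/M UMIs, which allows a share of up to 19.5% by the exact interval. The 2 cycling cells past both the Ly6c2 and C1q thresholds had 5.41% and 3.38% of member UMIs in S genes. In XCR1 dendritic cells, with 4 and 5 cycling cells, S genes supplied 46.1% and 53.3%, and 44.7% and 37.5% after thinning.

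The rule on Mki67, Top2a and Ccnb1 can miss cells early in S phase, so cells with 15 or more S UMIs that were not called cycling were counted as well. They numbered 36 (6.01%) and 51 (6.13%) of C1q macrophages, 1 and 2 of classical monocytes, 7 and 15 of CD8 T cells, and none of the nonclassical monocytes and granulocytic cells. At a fixed depth of 3000 UMIs and a cut of 5 S UMIs, 2.84% and 5.29% of C1q macrophages passed with no UMI of Mki67, Top2a or Ccnb1 left. Cells called cycling at full depth can fall in this second count, so it differs from the first in definition as well as depth. In CD8 T cells the first count gave 10% and 14.2%, and the second 20% (14 cells) and 9.43% (10 cells). The order of the libraries thus differed between the counts. With the cells of the first count included the cycling share was 13.4% and 17.7% in C1q macrophages and 1.57% and 2.08% in classical monocytes.

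**Figure D5:**
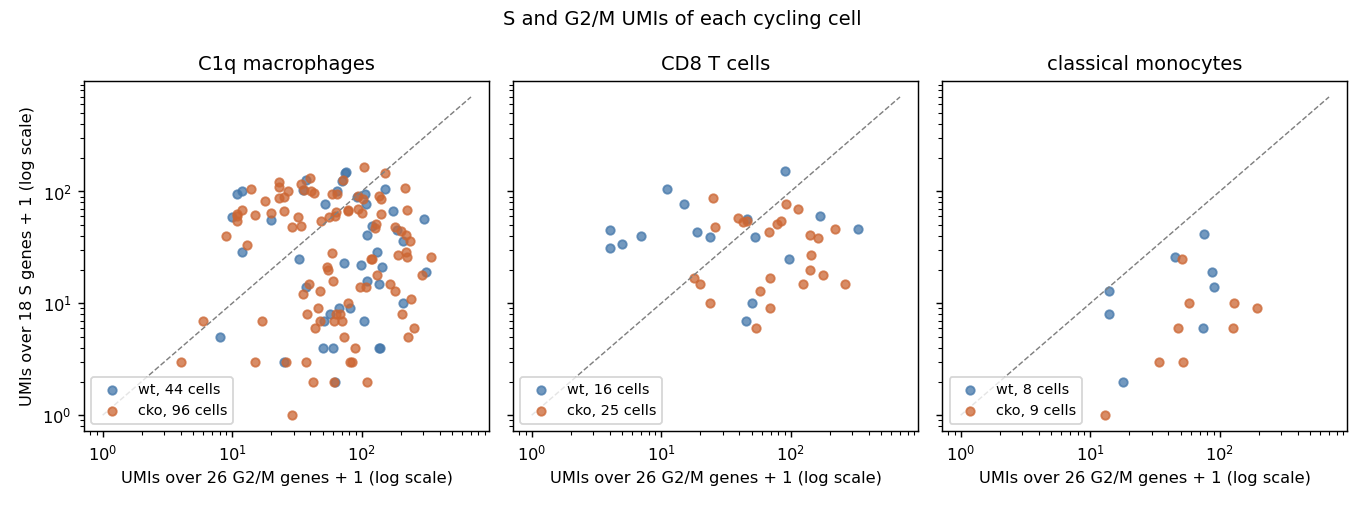
UMIs over the 18 S genes against UMIs over the 26 G2/M genes for each cycling cell, both plus 1 on log scales, with a dashed line at equality. C1q macrophages spread over both sides in both libraries, CD8 T cells of the library labelled wt lie mostly above the line (10 of 16) and those of the library labelled cko mostly below (5 of 25 above), and no classical monocyte lies above it.

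Other genes of the cell cycle were taken from lists made with earlier results known. Of 45 further G2/M genes, 18 passed a log2 ratio of 0.5 upward in leukocytes, 14 in C1q macrophages and 18 of 37 tested in CD8 T cells, with 2 past −0.5 in CD8 T cells. The shares of all genes past 0.5 were 6.33%, 7.39% and 14.4% in these populations, and 10.7% were past −0.5 in CD8 T cells. Of 25 further S genes, 2 passed upward in each of leukocytes and C1q macrophages, and in CD8 T cells 2 of 22 tested passed upward and 2 downward, which is near or below the shares of all genes. Their medians were 0.41 and 0.29 for further G2/M and S genes in C1q macrophages, and 0.48 and −0.18 in CD8 T cells, beside 0.04 and 0.02 for all genes. In cycling against other C1q macrophages, 44 of 45 and 24 of 25 were at least 2-fold higher, against 5.11% of 8337 genes with at least 100 UMIs.

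Regulators of entry into the cycle were mixed. Of 8 G1 cyclins, kinases and Myc-related genes, 3 were at least 2-fold higher in cycling C1q macrophages, Cdk2, Cdk4 and Cdc25a. The share among 8337 genes with at least 100 UMIs was 5.11%. Cdk4 was at 184 against 91.7 CPM, while Ccnd2 was at 78.3 against 114 CPM, and Ccnd1 and Ccnd2, the D cyclins that answer to growth factors, had log2 ratios between libraries of −0.17 and 0.53. Of the activators, Foxm1 stood at 29.4 against 0.308 CPM in cycling against other macrophages, and Mybl2, the B-Myb gene, at 17.9 against 1.17 CPM. Among inhibitors, Cdkn2c and Cdkn2d, which block Cdk4 and Cdk6, were higher in cycling macrophages at 105 against 7.52 CPM and 114 against 25.8 CPM. Cdkn1a, the p21 gene, was at 152 against 144 CPM, and the antiproliferative Btg2 was lower at 59.4 against 124 CPM.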

How the data were processed

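Single-cell RNA was captured with the 10x Genomics 3′ version 2 chemistry from pooled tumor leukocytes of 3 mice per genotype. The authors deposited UMI counts, whole numbers per gene and cell for cells already called. The submitters' processing notes name Cell Ranger, Seurat and the mm10 build, and their versions are not given in the sources used here. Libraries were grouped by title, wt and cko, each a single sample, so no p-value was computed.

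Cells were kept from 200 genes upward and up to 10% mitochondrial UMIs, 4 and 14 being removed. Classes were gated on marker UMIs or, for C1q, Ly6c2, S100a8 with S100a9 and nonclassical markers, on UMIs per 10000. T, NK or B cells with 5 or more myeloid marker UMIs, or past the granulocytic gate, were set aside as mixed lineage (25 and 29 cells), and 89 and 103 cells stayed ungated. Scrublet called 2 and 5 doublets (0.0818% and 0.185%), too few to be used, so doublets were left in and, as an alternative, the 48 and 59 cells with the highest scores were removed.

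Shares have exact Clopper-Pearson intervals. Counts were summed per library and class and scaled to 1000000 UMIs of the class (CPM), and ratios have exact conditional binomial intervals. A gene was tested with at least 20 UMIs over both libraries and called at a log2 ratio of 0.5 or more in either direction. Thinning drew 3000 UMIs per cell without replacement, below the shallowest cell. All 44 members are described. In leukocytes, C1q macrophages and CD8 T cells the 5 with the largest upward ratio are named, and in other classes only some members or none. Genes outside the 44 are named from the 20 with the highest lower bound in cycling C1q macrophages and at least 100 UMIs. The members, lists and gates were chosen with earlier results of these data known. Intervals and ratios were tried on simulated data with independent UMIs. These leave out the clustering of UMIs in single cells, so they cannot show how much too narrow intervals on UMI sums are. Sequences come from RefSeq tables. Python 3.11.15, scipy 1.17.1, scanpy 1.11.5 and edgeR 4.0.16 (for TMM factors alone) were used. Intervals cover counting error only.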

Additional observations from a re-analysis of the deposited data

How the results depend on the processing

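Of 109 alternative values, 87 stayed within the counting interval of the reported value or within 1.5 times a reported count, 21 lay outside and 1 changed sign. In all kept cells the shares of cycling cells in the libraries labelled wt and cko were 5.40% and 8.47% with 2 or more UMIs, 3.23% and 5.66% with 5 or more, 6.05% and 9.36% thinned, and 5.40% in the library labelled wt with Cdk1, Birc5 and Tpx2. The log2 ratio of these shares lay inside its interval in all 9 alternatives, those without tumor-gated cells or shared barcodes being added after seeing the data. In CD8 T cells of at least 5000 UMIs the library labelled wt had the higher share, 30.8% against 28.7%. The share in C1q macrophages was also higher in the library labelled cko in all 4 alternatives run.

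Cycling cells alone, an alternative also added after seeing the data, gave log2 ratios of G2/M genes of 0.19 in leukocytes, 0.0032 in C1q macrophages and 0.91 in CD8 T cells, and of S genes of −0.054 in leukocytes, a change of sign, and 0.075 in C1q macrophages. The G2/M ratios of cycling cells alone include the genes that chose the cells and are a description. As a mean over cells the S genes of C1q macrophages gave 0.47. Without the top cell of each library the G2/M genes of CD8 T cells gave 0.90. At a log2 ratio of 1, 1 member in leukocytes, 3 in C1q macrophages and 7 in CD8 T cells were higher and 0 in CD8 T cells lower, against 1.43%, 1.36% and 3.57% of all genes higher and 1.85% lower. With intervals above 0, 39 members in leukocytes and 36 in C1q macrophages were higher, against 16% and 12.8% of all genes. Thinned, S genes supplied 29.8% and 30.3% of member UMIs in cycling C1q macrophages. The cause was not tested. No paired analysis was possible because each genotype has 1 library. Small classes are limited by their number of cells, and genes under 20 UMIs by depth.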
